A study of Mus musculus with 8 samples.

Results

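The genes described here are 34 names of the B cell lineage and of antigen presentation by MHC class II, read out in libraries made from activated CD8+ T cells. They were chosen by symbol or gene ID, and 33 of the 34 were found among the 45777 genes of the count table. The name Cxcr5b matched no gene. The level of each gene was followed in all 8 libraries as a readout of B lineage RNA in a T cell preparation. Several genes did not vary with the rest, as given below, so their levels alone are not read as B lineage RNA. That reading comes from the same 8 libraries, so it is no independent test of the genes that did vary together.

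RNA-seq had been done on CD8+ T cells, the killing lymphocytes of the immune system, taken from lymph node and spleen of C57BL/6 mice. All cells had been stimulated with antibodies against CD3 and CD28 and cultured for 48 hours with EnPGC-1, with SGC-CBP30 (an inhibitor of the CBP and p300 bromodomains), with Ctrl PIP (the compound named as the control) or with the vehicle DMSO. Each of these 4 groups had 2 libraries. The series text calls EnPGC-1, Ctrl PIP and SGC-CBP30 PIPs. The compounds were compared at the same time, the labels give no doses, and no source used here tells how the CD8+ cells were purified. Nor do the labels say whether replicates were separate animals or separate cultures. The p-values then reflect only the spread among these libraries, which may be technical.

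B cells recognise antigen through a membrane immunoglobulin whose signalling chains are CD79A and CD79B, and the factors PAX5, EBF1 and SPIB hold their identity. They also present peptides to CD4 T cells on MHC class II molecules, which are built from alpha and beta chains, chaperoned by the invariant chain CD74 and loaded with the help of H2-DM, under the control of the coactivator CIITA. Mouse T cells make little or no class II protein, whereas B cells, dendritic cells and macrophages carry it.

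The libraries held 38890043 to 55491261 counts each, and levels below are CPM, counts relative to library depth, on library sizes scaled by the TMM method. The defining markers of CD8 T cells were present in every library. Cd8a stood between 904 and 1241 CPM, Cd8b1 between 663 and 1114 CPM, and Cd3e between 328 and 429 CPM. Cd4 stood between 4.54 and 14.1 CPM.

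The 33 genes ran from nearly even levels to levels that differed many times over between libraries. The ratio of the highest to the lowest library was 1.34 for Tnfrsf13b, 2.02 for Ighd, 2.99 for Cd74, 3.94 for H2-Ob, 6.12 for H2-Ab1 and 78.9 for Ms4a1, with no clear break along that range. It had a median of 9.74 over the 33 genes, beside 2.41 over the 16750 genes tested. It was over 4 for 21 of the 33 (27.9% of all genes tested) and over 10 for 16 of them (7.31%). For 6 genes with a library at 0 (Blnk, Fcer2a, Cr2, Ebf1, Vpreb3 and Cd40) the ratio was taken against a floor of 3 counts in that library and is a lower bound. Across the 33 genes, which are not independent replicates, the ratio went down with the level per kilobase of transcript (Spearman rho -0.66) and was only loosely related to transcript length (rho 0.18). Both are descriptions, since genes with few counts also carry more counting error.

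**Figure D1:**
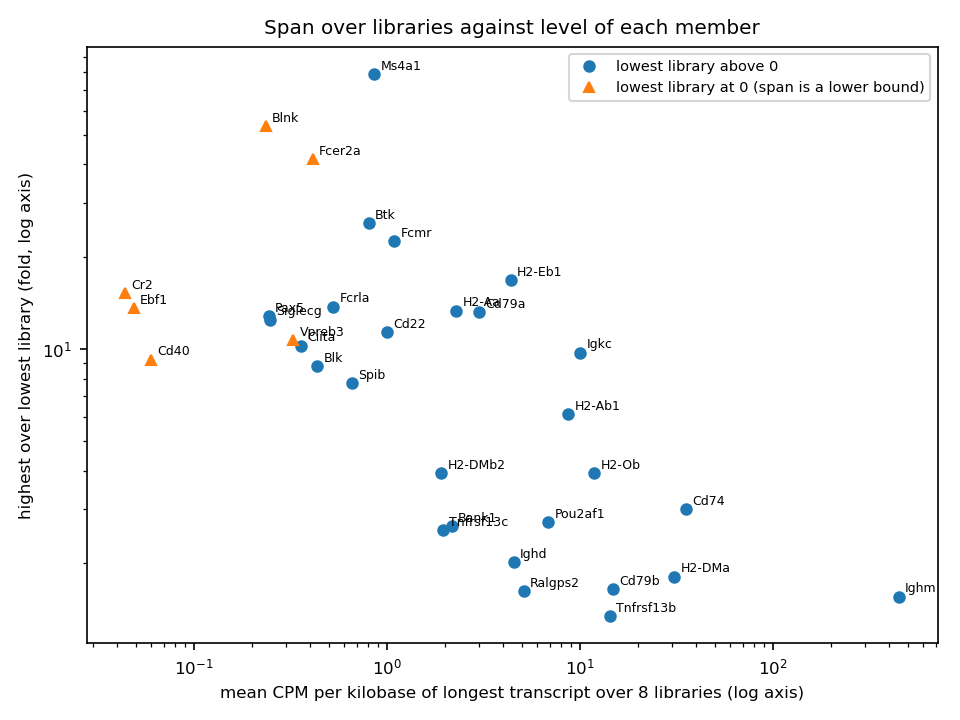
Mean level of each of the 33 genes over 8 libraries (CPM per kilobase of the longest transcript, log axis) against the ratio of its highest to its lowest library (log axis). Ms4a1 has the highest ratio, 78.9, and Ighm, at 450 CPM per kilobase, has a ratio of 1.55; triangles mark genes with a library at 0, whose ratio is a lower bound.

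Among the B cell surface genes, Cd79a (gene ID 12518, chr7:24897497-24901858 on GRCm38.p6) and Ms4a1, which encodes the B cell surface protein CD20 (gene ID 12482, chr19:11249679-11266149), had the clearest pattern by library. Cd79a had 9.33 and 7.11 CPM in the EnPGC-1 libraries, 2.32 and 0.709 CPM with SGC-CBP30, 3.6 and 0.906 CPM with Ctrl PIP, and 7.18 and 3.87 CPM with DMSO. Both EnPGC-1 libraries were above both SGC-CBP30 and both Ctrl PIP libraries, and they overlapped with DMSO. Ms4a1 had 7.36 and 1.93 CPM with EnPGC-1, 0.755 and 0.0933 CPM with SGC-CBP30, 2.60 and 0.308 CPM with Ctrl PIP, and 6.51 and 1.64 CPM with DMSO. Replicate 1 was several times above replicate 2 in every group, and the lowest of these values rests on 5 counts. Cd22, an inhibitory receptor of B cells, had 6.58 and 3.36 CPM with EnPGC-1, 1.27 and 0.709 CPM with SGC-CBP30, 4.0 and 3.31 CPM with Ctrl PIP, and 8.04 and 4.46 CPM with DMSO. Here SGC-CBP30 alone lay below all the other libraries.

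Cd79b, which encodes the partner of CD79A, was more even over the libraries. It had 20.4 and 26.9 CPM with EnPGC-1, 16.7 and 16.3 CPM with SGC-CBP30, 24.3 and 18.9 CPM with Ctrl PIP, and 19.9 and 26.8 CPM with DMSO, a ratio of highest to lowest library of 1.65. As for Cd22, SGC-CBP30 lay below all the other libraries, but by less as a ratio. Per kilobase of transcript, Cd79b averaged 14.9 CPM and Cd79a 3.0 CPM. The level of the partner chain was therefore higher and more even over the libraries.

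The immunoglobulin genes also differed from each other in how even they were. Ighm, the constant region of the IgM heavy chain, had 776 and 822 CPM with EnPGC-1, 850 and 774 CPM with SGC-CBP30, 653 and 632 CPM with Ctrl PIP, and 975 and 627 CPM with DMSO. It made up between 62.4% and 76.8% of the summed CPM of the 33 genes, and at 450 CPM per kilobase it stood above Cd8a, at 335 CPM per kilobase. Igkc, the constant region of the kappa light chain, averaged 10.01 CPM per kilobase. It had 9.08 and 7.39 CPM with EnPGC-1, 2.34 and 0.933 CPM with SGC-CBP30, 5.14 and 1.5 CPM with Ctrl PIP, and 8.63 and 7.61 CPM with DMSO. The light chain thus differed almost 10-fold between libraries (9.74 as a ratio) where the heavy chain differed by a ratio of 1.55. Ighd, the IgD heavy chain, ranged from 5.47 to 11.04 CPM and was highest with SGC-CBP30. No source used here gives the strand setting of the counting, so counts of Ighm and Ighd cannot be separated from those of overlapping or antisense transcripts.

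The remaining surface genes had low levels. Cr2 (a complement receptor) ranged from 0 to 0.850 CPM, Fcer2a (the low-affinity IgE receptor) from 0 to 2.33 CPM, Fcmr (an IgM receptor) from 0.168 to 3.79 CPM, Siglecg (an inhibitory lectin) from 0.173 to 2.16 CPM and Fcrla from 0.135 to 1.85 CPM. Each of these 5 was highest in replicate 1 of EnPGC-1 or of DMSO. Vpreb3 had 17 and 8 counts with EnPGC-1, 25 and 8 counts with SGC-CBP30, 0 and 0 counts with Ctrl PIP, and 26 and 6 counts with DMSO.

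Of the transcription factors, Pax5, the master regulator of the lineage (gene ID 18507, chr4:44524748-44710694), had 4.25 and 1.86 CPM with EnPGC-1, 0.976 and 0.410 CPM with SGC-CBP30, 0.960 and 0.482 CPM with Ctrl PIP, and 5.25 and 1.42 CPM with DMSO. All 4 EnPGC-1 and DMSO libraries were above all 4 SGC-CBP30 and Ctrl PIP libraries. Spib, an ETS factor, followed the same division, with 3.04 and 2.38 CPM with EnPGC-1, 0.976 and 0.392 CPM with SGC-CBP30, 1.92 and 0.597 CPM with Ctrl PIP, and 2.73 and 2.67 CPM with DMSO. Ebf1 had 0.729 and 0.167 CPM with EnPGC-1, 0.129 and 0.112 CPM with SGC-CBP30, 0.200 and 0 CPM with Ctrl PIP, and 0.785 and 0.217 CPM with DMSO, at most 33 counts in a library. Pou2af1, a coactivator of octamer factors, went its own way. It had 30.5 and 14.4 CPM with EnPGC-1, 13.7 and 14.8 CPM with SGC-CBP30, 15.9 and 20.1 CPM with Ctrl PIP, and 18.9 and 11.2 CPM with DMSO.

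Among the signalling genes, Btk, the kinase mutated in agammaglobulinaemia, had 7.21 and 1.47 CPM with EnPGC-1, 1.33 and 0.280 CPM with SGC-CBP30, 1.10 and 0.694 CPM with Ctrl PIP, and 3.40 and 0.889 CPM with DMSO. Its level in replicate 1 of EnPGC-1 was above that of the other 7 libraries. Blk, a SRC family kinase, had 1.97 and 1.15 CPM with EnPGC-1, 0.644 and 0.224 CPM with SGC-CBP30, 0.900 and 1.02 CPM with Ctrl PIP, and 1.64 and 0.553 CPM with DMSO. The adaptor Blnk ranged from 0 to 2.99 CPM and the scaffold Bank1 from 5.2 to 13.7 CPM. Ralgps2, an exchange factor for RAL GTPases, ranged from 27.9 to 45.2 CPM and ran the other way, with its highest level in replicate 2 of SGC-CBP30 and its lowest in replicate 1 of DMSO.

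Of the TNF receptor family, Tnfrsf13c, the receptor for the survival factor BAFF, had 5.76 and 5.09 CPM with EnPGC-1, 2.85 and 2.24 CPM with SGC-CBP30, 3.88 and 2.39 CPM with Ctrl PIP, and 5.71 and 3.14 CPM with DMSO. Tnfrsf13b, which encodes the related receptor TACI, was the most even of the 33 genes, at 30.1 to 40.4 CPM. Cd40, the costimulatory receptor of antigen-presenting cells, had 21 and 0 counts with EnPGC-1, 0 and 0 with SGC-CBP30, 0 and 21 with Ctrl PIP, and 11 and 13 with DMSO, too few to set an order.

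**Figure D2:**
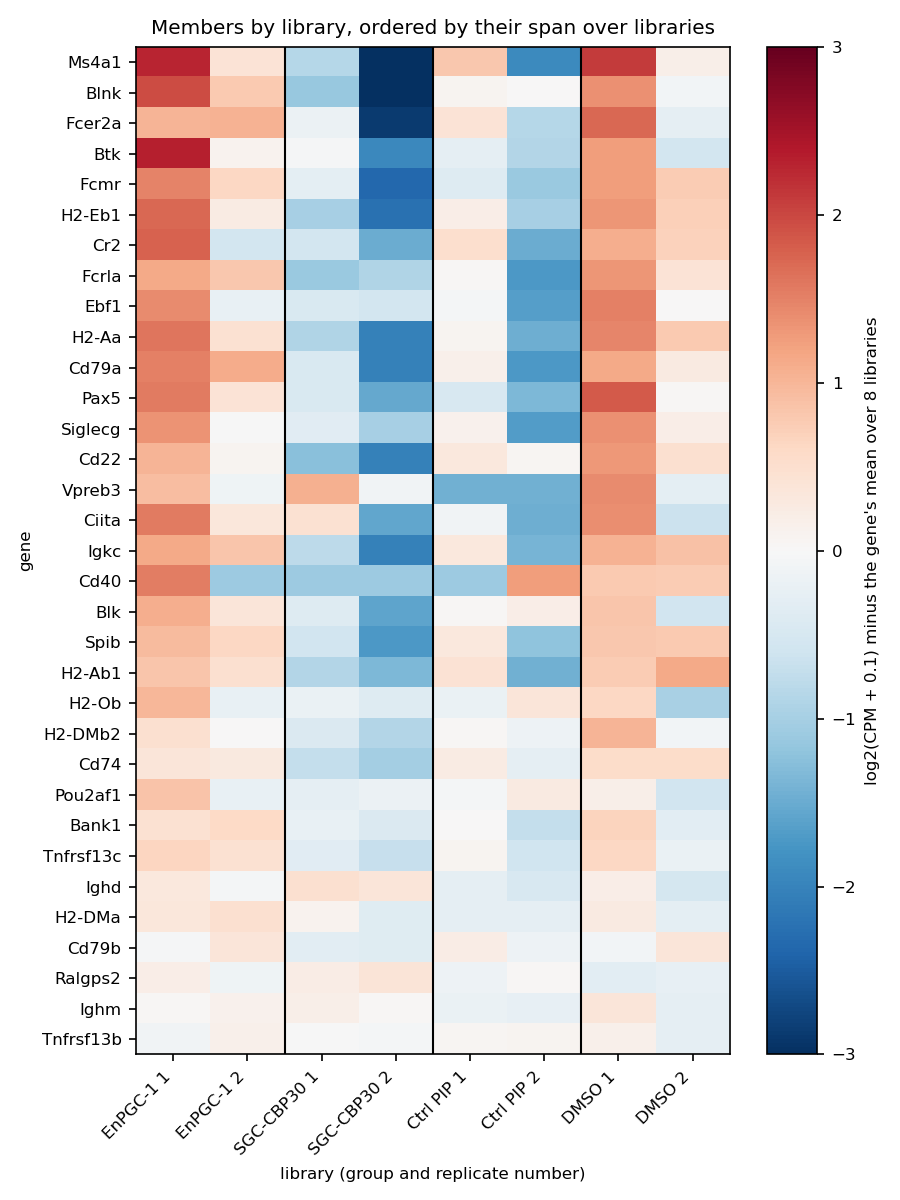
Level of each of the 33 genes in each of the 8 libraries, drawn as the deviation of log2(CPM + 0.1) from the gene's mean over the libraries, with EnPGC-1, SGC-CBP30, Ctrl PIP and DMSO from left to right. The columns of replicate 1 of EnPGC-1 and of DMSO hold the highest value of 28 of the 33 genes, and the even genes (Tnfrsf13b, Ighm, Ralgps2, Cd79b) show little colour.

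The class II genes are shown with their promoters, since class II promoters are known to share short conserved boxes. The 250 bases before the start of H2-Aa (minus strand, chr17:34287824-34288073), H2-Eb1 (plus strand, chr17:34305617-34305866), H2-Ob (plus strand, chr17:34238655-34238904) and H2-DMa (plus strand, chr17:34122582-34122831, the first of 2 starts listed) were taken from RefSeq on GRCm38.p6. They are written 5′ to 3′ on the gene's own strand, and capitals mark GATTGG or its reverse complement CCAATC, the core of the Y box of class II promoters.
H2-Aa: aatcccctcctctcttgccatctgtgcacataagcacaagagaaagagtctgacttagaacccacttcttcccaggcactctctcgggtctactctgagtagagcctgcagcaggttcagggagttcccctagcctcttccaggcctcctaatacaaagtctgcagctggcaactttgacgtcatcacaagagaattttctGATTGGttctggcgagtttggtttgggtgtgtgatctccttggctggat
H2-Eb1: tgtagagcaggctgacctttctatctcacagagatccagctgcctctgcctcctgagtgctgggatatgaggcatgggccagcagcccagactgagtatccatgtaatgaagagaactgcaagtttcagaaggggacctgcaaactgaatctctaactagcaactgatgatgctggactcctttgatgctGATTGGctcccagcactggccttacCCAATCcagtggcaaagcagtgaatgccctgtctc
H2-Ob: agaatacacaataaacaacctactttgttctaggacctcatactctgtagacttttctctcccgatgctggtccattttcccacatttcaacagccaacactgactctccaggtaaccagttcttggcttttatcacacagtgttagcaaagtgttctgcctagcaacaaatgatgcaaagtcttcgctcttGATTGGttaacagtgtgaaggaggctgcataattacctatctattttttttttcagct
H2-DMa: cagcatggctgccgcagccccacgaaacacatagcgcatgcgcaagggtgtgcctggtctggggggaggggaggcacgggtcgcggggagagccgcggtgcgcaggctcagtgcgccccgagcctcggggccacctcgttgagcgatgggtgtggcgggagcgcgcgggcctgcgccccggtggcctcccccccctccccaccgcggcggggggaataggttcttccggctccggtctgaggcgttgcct
The first match began 49 bases before the start of H2-Aa, 60 bases before H2-Eb1 and 58 bases before H2-Ob, and H2-Eb1 had 2 matches. The window of H2-DMa shown had 0 matches, while the window of its other listed start had a match. Of the 33 genes, 23 had a promoter in the RefSeq table, with 29 starts between them. GATTGG, searched on both strands, was in 7 of these 29 windows (1 window each of Fcer2a, Fcrla, H2-Aa, H2-DMa, H2-DMb2, H2-Eb1 and H2-Ob) and in 14.6% of all 32851 windows of that length. The octamer ATGCAAAT, also searched on both strands, was in 2 (Blnk and Vpreb3), against 1.60% of all windows. A match describes the sequence and is not a measured binding site.

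The classical chains had the wide pattern of Cd79a and Pax5. H2-Aa, the I-A alpha chain (gene ID 14960, chr17:34282744-34287823), had 16.2 and 7.28 CPM with EnPGC-1, 2.80 and 1.21 CPM with SGC-CBP30, 5.64 and 1.85 CPM with Ctrl PIP, and 14.9 and 9.15 CPM with DMSO. H2-Eb1, annotated as the I-E beta chain, had 17.6 and 6.31 CPM with EnPGC-1, 2.61 and 1.04 CPM with SGC-CBP30, 6.10 and 2.62 CPM with Ctrl PIP, and 13.3 and 8.75 CPM with DMSO. In both genes the 4 EnPGC-1 and DMSO libraries lay above the 4 others, for H2-Eb1 only just (6.31 against 6.10 CPM). H2-Ab1, the I-A beta chain, had 15.5 and 12.01 CPM with EnPGC-1, 4.68 and 3.36 CPM with SGC-CBP30, 11.8 and 3.14 CPM with Ctrl PIP, and 14.7 and 19.2 CPM with DMSO. The 4 EnPGC-1 and DMSO libraries lay above the 4 others here too, but only just (12.01 against 11.8 CPM). H2-Ab1 was the only one of the 3 whose highest library was replicate 2 of DMSO.

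Cd74, the invariant chain (gene ID 16149), was much higher, at 35.7 CPM per kilobase against 2.29 CPM per kilobase for H2-Aa and 8.70 CPM per kilobase for H2-Ab1. It had 60.9 and 57.4 CPM with EnPGC-1, 28.7 and 23.2 CPM with SGC-CBP30, 55.6 and 38.8 CPM with Ctrl PIP, and 69.3 and 68.6 CPM with DMSO. As a ratio of replicate 1 to replicate 2, though not in CPM, the 2 libraries of every group lay closer together than for H2-Aa, H2-Ab1 or H2-Eb1. SGC-CBP30 lay below all the other libraries. The ratio of Cd74 to the sum of H2-Aa, H2-Ab1 and H2-Eb1 was 1.24 and 2.24 with EnPGC-1, 2.85 and 4.12 with SGC-CBP30, 2.36 and 5.09 with Ctrl PIP, and 1.62 and 1.85 with DMSO. Cd74 and the classical chains were thus not in 1 fixed proportion over the libraries.

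H2-DMa, a chain of the peptide-loading molecule, had 76.1 and 84.7 CPM with EnPGC-1, 64.8 and 46.9 CPM with SGC-CBP30, 50.1 and 50.3 CPM with Ctrl PIP, and 72.6 and 48.8 CPM with DMSO. Its ratio of highest to lowest library was 1.81, against 13.3 for H2-Aa. H2-DMb2 ranged from 1.40 to 5.49 CPM; it has a near-identical copy, H2-DMb1, and the counting may have split reads between them. H2-Ob, the beta chain of the H2-DM inhibitor H2-O, ranged from 14.8 to 58.2 CPM. Ciita, the coactivator of class II genes, had 4.98 and 2.08 CPM with EnPGC-1, 2.26 and 0.485 CPM with SGC-CBP30, 1.48 and 0.520 CPM with Ctrl PIP, and 4.4 and 0.988 CPM with DMSO. Replicate 1 of every group was above replicate 2 for Ciita.

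**Figure D3:**
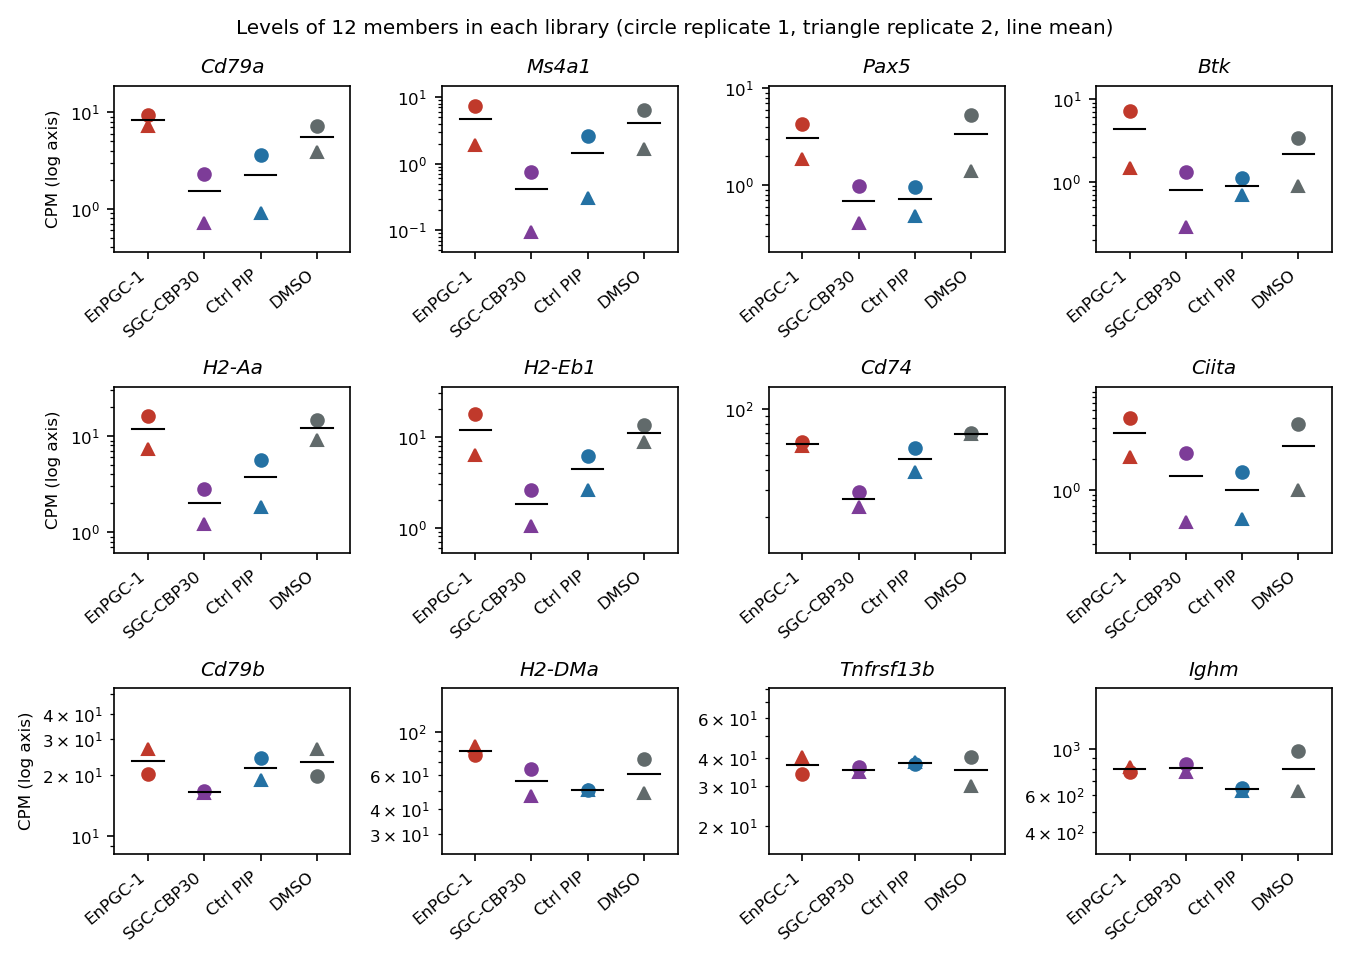
Levels (CPM, log axis) of 12 of the genes in each library, with the groups EnPGC-1, SGC-CBP30, Ctrl PIP and DMSO from left to right, a circle for replicate 1, a triangle for replicate 2 and a line for the mean. For Cd79a, Pax5 and H2-Aa the 4 EnPGC-1 and DMSO libraries lie above the 4 others, whereas Ighm and H2-DMa stay within a ratio of 1.81.

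Much of the spread was shared between libraries of different groups. Replicate 1 of EnPGC-1 was the highest library for 16 of the 33 genes (23.8% of all genes tested) and replicate 1 of DMSO for 12 (10.8%). Replicate 2 of SGC-CBP30 was the lowest, or tied at 0 with another library, for 21 (10.4% of all genes tested). Replicate 1 exceeded replicate 2 for 27 of 33 genes with EnPGC-1, 29 with SGC-CBP30, 25 with Ctrl PIP and 30 with DMSO, whereas over all genes tested this share was between 49.0% and 50.8%. For 19 of the 33 it did so in every group (6.44% of all genes tested). The median log2 difference between replicate 1 and replicate 2 over the 33 genes was 0.75 with EnPGC-1, 0.74 with SGC-CBP30, 0.69 with Ctrl PIP and 0.84 with DMSO. What a replicate number stands for is not given in the labels. The libraries also differed by transcript length: over 9293 genes, Spearman's rho between transcript length and a gene's deviation from its mean was 0.49 and -0.52 with EnPGC-1, 0.54 and 0.48 with SGC-CBP30, -0.53 and -0.20 with Ctrl PIP, and 0.56 and -0.61 with DMSO. Replicate 1 of EnPGC-1 and of DMSO thus had relatively more of the long transcripts than replicate 2, while both SGC-CBP30 libraries stood with the first and both Ctrl PIP libraries with the second. With this trend removed, which was chosen after seeing the data, the median log2 fold change of the 33 genes was 0.16 for EnPGC-1 against DMSO, -1.72 for SGC-CBP30 against DMSO and -1.14 for Ctrl PIP against DMSO.

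A sum over 4 genes with wide ratios between libraries showed the same order, but sums over whole groups of B lineage genes differed. The B lineage transcription genes summed to 38.5 and 18.8 CPM with EnPGC-1 and 15.8 and 15.7 CPM with SGC-CBP30. They summed to 19.0 and 21.2 CPM with Ctrl PIP and 27.7 and 15.5 CPM with DMSO. The signalling genes summed to 50.2 and 52.0 CPM with SGC-CBP30 and 48.6 and 38.3 CPM with DMSO. Pou2af1 and Ralgps2, high and more even, held most of these sums. Cd79a, Ms4a1, Cd22 and Pax5 together had 27.5 and 14.3 CPM with EnPGC-1, 5.32 and 1.92 CPM with SGC-CBP30, 11.2 and 5.01 CPM with Ctrl PIP, and 27.0 and 11.4 CPM with DMSO. As a percentage of the summed CPM of Cd8a and Cd8b1, these 4 genes stood at 1.33% and 0.606% with EnPGC-1, 0.284% and 0.120% with SGC-CBP30, 0.680% and 0.320% with Ctrl PIP, and 1.31% and 0.697% with DMSO. In bulk RNA, fewer B lineage cells and less of this RNA per cell cannot be told apart. H2-Aa, H2-Ab1 and H2-Eb1 together had 49.3 and 25.6 CPM with EnPGC-1, 10.1 and 5.62 CPM with SGC-CBP30, 23.5 and 7.61 CPM with Ctrl PIP, and 42.9 and 37.1 CPM with DMSO. The ratio of this class II sum to the sum of Cd79a, Ms4a1, Cd22 and Pax5 stayed between 1.52 and 3.26. The sum of these 4 genes itself ranged from 1.92 to 27.5 CPM.

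**Figure D4:**
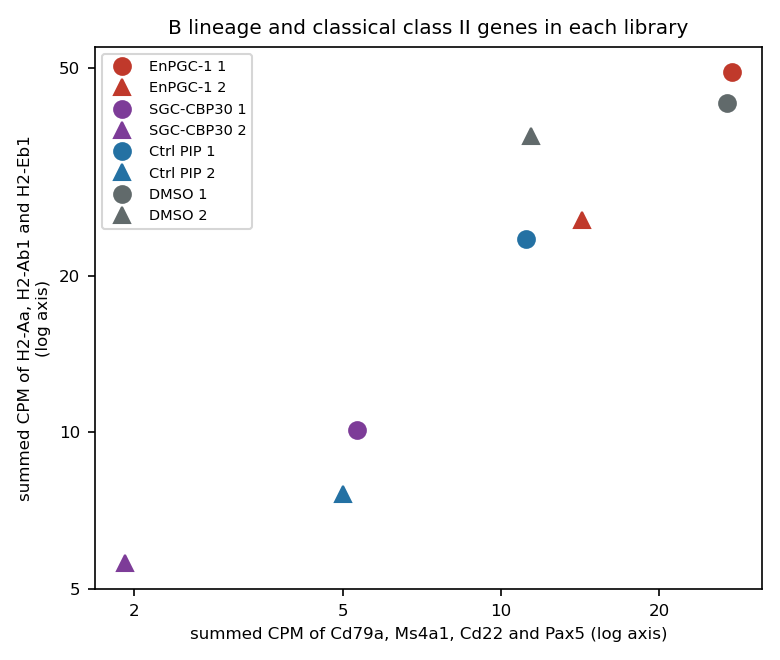
Summed CPM of Cd79a, Ms4a1, Cd22 and Pax5 against summed CPM of H2-Aa, H2-Ab1 and H2-Eb1 in each library (log axes), with circles for replicate 1 and triangles for replicate 2. The points lie along a band from replicate 2 of SGC-CBP30 (1.92 and 5.62 CPM) to replicate 1 of EnPGC-1 (27.5 and 49.3 CPM), and replicate 2 of DMSO (11.4 and 37.1 CPM) lies above it.

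To show which class II genes followed the B lineage, each gene was set against the mean centred log2 CPM of the 25 genes outside the class II group over the 8 libraries, as a description. The libraries share groups, and the 25 genes are part of their own mean. Pearson's r was 0.98 for Ms4a1 and Pax5 and 0.96 for Cd79a. Among the class II genes it was 0.98 for H2-Aa, 0.97 for H2-Eb1, 0.91 for Ciita, 0.90 for H2-DMb2, 0.85 for H2-Ab1, 0.84 for Cd74, 0.71 for H2-DMa and 0.51 for H2-Ob. It was 0.51 for Vpreb3, 0.46 for Cd40, 0.45 for Pou2af1, 0.43 for Cd79b and 0.39 for Ighm. It was 0.10 for Ighd, 0.09 for Tnfrsf13b and -0.54 for Ralgps2. These genes still count in the mean of the 25 and in every median of the 33. Among 10144 other genes of at least 5 CPM, the 10 most alike were Prrt1, Sp110, Gm8369, Tpgs2, Aup1, Gbp3, mt-Rnr1, Mcoln2, Acap1 and Cr1l, with r between 0.92 and 0.98 and smaller ratios of highest to lowest library, from 1.32 for Cr1l to 3.02 for mt-Rnr1. These are the extremes of many correlations over 8 libraries. Of the 10144 genes, 98 had r of at least 0.8 and 212 had r of at most -0.8.

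EnPGC-1 was compared with DMSO to see whether the compound moved these genes relative to its vehicle. They lay on both sides of 0 (21 above, 12 below), and their median log2 fold change was 0.07, beside 0.0015 over all genes tested. Groups did not overlap for Ralgps2 and H2-DMa, which were higher with EnPGC-1 (9.83% of all genes), and for Cd74, which was lower (9.24%). Cd79a averaged 8.22 ± 1.57 CPM with EnPGC-1 and 5.53 ± 2.34 CPM with DMSO (SD, n = 2 each), a log2 fold change of 0.57 (95% interval -1.30 to 2.45). H2-Aa averaged 11.7 ± 6.29 CPM with EnPGC-1 and 12 ± 4.04 CPM with DMSO (-0.03, interval -1.67 to 1.60), Pax5 had -0.13 (interval -2.04 to 1.79) and Cd74 -0.22 (interval -0.77 to 0.33). Ralgps2 had 0.32 (SE 0.20), H2-DMa 0.41 (SE 0.26) and Pou2af1 0.57 (SE 0.41). Adjusted p was at least 0.998 for every one of the 33 genes (edgeR quasi-likelihood test, Benjamini-Hochberg over 16750 genes). The intervals of Cd79a, Pax5 and H2-Aa are wide enough to hold differences of more than 2-fold either way. The median was -0.25 without replicate 1 of EnPGC-1 and -0.13 without replicate 2 of DMSO, against 0.43 without replicate 2 of EnPGC-1 and 0.67 without replicate 1 of DMSO.

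SGC-CBP30 was compared with the same DMSO libraries. Of the 33 genes 29 were below 0 on the log2 scale, and the median was -1.72, beside -0.03 over all genes tested. Groups did not overlap for 20 genes that were lower (14.5% of all genes) and for Ighd and Ralgps2, which were higher (16.2%). The 20 held all 3 classical class II chains, Cd74, Cd79a, Ms4a1, Cd22, Igkc, Pax5, Ebf1 and Spib. Cd74 averaged 26.0 ± 3.96 CPM with SGC-CBP30 and 69.0 ± 0.467 CPM with DMSO, a log2 fold change of -1.41 (SE 0.23, interval -1.97 to -0.85). Cd22 averaged 0.989 ± 0.397 CPM with SGC-CBP30 and 6.25 ± 2.53 CPM with DMSO (-2.66, interval -3.94 to -1.37), and H2-Aa averaged 2.01 ± 1.12 CPM with SGC-CBP30 and 12 ± 4.04 CPM with DMSO (-2.58, interval -4.33 to -0.83). H2-Eb1 had -2.59 (SE 0.73), Pax5 -2.26 (SE 0.84) and Cd79a -1.87 (SE 0.81). None of the 33 passed edgeR's quasi-likelihood test (adjusted p at least 0.943, Benjamini-Hochberg). DESeq2's Wald test called Cd74 and Cd22 lower, 2 of 33 where it called 0.439% of all genes lower, and the adjusted p of Cd74 ran from 3.8e-05 to 1 over the alternative settings and that of Cd22 from 0.00127 to 1. Cd40 was at 0 in both SGC-CBP30 libraries. Its mean with DMSO was 4.66 times the floor of 3 counts per library, a lower bound that rests on few counts.

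Ctrl PIP, the control compound, was also below DMSO for 29 of the 33 genes, with a median of -1.10 beside -0.05 over all genes tested. Groups did not overlap for 15 lower genes (7.83% of all genes) and for Ralgps2, which was higher (8.34%). Pax5 averaged 0.721 ± 0.338 CPM with Ctrl PIP and 3.34 ± 2.71 CPM with DMSO (-2.21, interval -4.23 to -0.19). H2-Aa had -1.68 (SE 0.70), Cd79a -1.29 (SE 0.80) and Cd74 -0.55 (SE 0.23), with an adjusted p of 1 for each (edgeR quasi-likelihood test, Benjamini-Hochberg). Vpreb3 was at 0 in both Ctrl PIP libraries. Its mean with DMSO was 6.25 times the floor of 3 counts per library, a lower bound that rests on few counts. The comparisons with DMSO share the DMSO libraries, of which replicate 1 was higher for 30 of the 33 genes. Without that library the median was -0.27 for Ctrl PIP and -0.88 for SGC-CBP30, and without replicate 2 of Ctrl PIP it was -0.61 for Ctrl PIP.

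EnPGC-1 was set against Ctrl PIP, its named control, at the same time and at doses that are not given. Of the 33 genes 32 were above 0 and Tnfrsf13b was below, with a median of 1.10 beside 0.05 over all genes tested. Groups did not overlap for 21 genes, all higher with EnPGC-1 (20.7% of all genes), and for 0 lower genes (21.7%). H2-DMa averaged 80.4 ± 6.12 CPM with EnPGC-1 and 50.2 ± 0.0768 CPM with Ctrl PIP (0.68, interval 0.06 to 1.30), and Pax5 averaged 3.05 ± 1.69 CPM with EnPGC-1 and 0.721 ± 0.338 CPM with Ctrl PIP (2.08, interval 0.06 to 4.09). H2-Aa had 1.65 (interval -0.04 to 3.33), Cd79a 1.87 (interval -0.07 to 3.80) and Cd74 0.33 (interval -0.22 to 0.88). Adjusted p was at least 0.812 for every gene (edgeR quasi-likelihood test, Benjamini-Hochberg). The mean of Vpreb3 with EnPGC-1 was 4.76 times the Ctrl PIP floor, a lower bound. The median was 0.69 without replicate 1 of EnPGC-1 or without replicate 2 of Ctrl PIP, and 2.12 without replicate 1 of Ctrl PIP.

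Against SGC-CBP30, EnPGC-1 was higher for 29 of the 33 genes, with a median of 1.84 beside 0.02 over all genes tested. Groups did not overlap for 24 higher genes (13.2% of all genes) and for Ighd and Ralgps2, which were lower (14.7%). H2-Eb1 had a log2 fold change of 2.70 (SE 0.73), H2-Aa 2.55 (SE 0.73), Cd79a 2.44 (SE 0.83), Cd22 2.32 (SE 0.53), Pax5 2.13 (SE 0.84) and Cd74 1.19 (interval 0.63 to 1.74), each with an adjusted p of 1 in edgeR's quasi-likelihood test. DESeq2's Wald test called Cd74 and Cd22 higher, 2 of 33 beside 0.0896% of all genes. Its adjusted p was 0.00554 for Cd74 and 0.0369 for Cd22, and both reached 1 in other settings. Without replicate 1 of EnPGC-1 the median was 0.97.

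SGC-CBP30 and Ctrl PIP, both low, differed less. Of the 33 genes 26 were below 0, with a median of -0.40 beside 0.01 over all genes tested, and the median was 0.14 without replicate 1 of Ctrl PIP, -0.70 without replicate 2 of Ctrl PIP and -1.03 without replicate 1 of SGC-CBP30. Groups did not overlap for 9 lower genes (30.2% of all genes) and for 4 higher genes, Vpreb3, Ighm, Ighd and Ralgps2 (31.5%), both counts being under the share of all genes. Cd74 had -0.86 (SE 0.23), Cd22 -1.88 (SE 0.52), Ighd 0.80 (SE 0.32), H2-Aa -0.90 (SE 0.70), Cd79a -0.57 (SE 0.79) and Pax5 -0.06 (SE 0.82), with adjusted p from 0.871 to 0.993 in edgeR's quasi-likelihood test. In a fit of these 4 libraries alone, whose common coefficient of variation was 0.154 beside 0.415 over all 8, 29 of the 33 genes were tested, and edgeR called Cd74 and Cd22 lower and Ighd higher, where it called 8.51% of all genes lower and 7.27% higher.

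**Figure D5:**
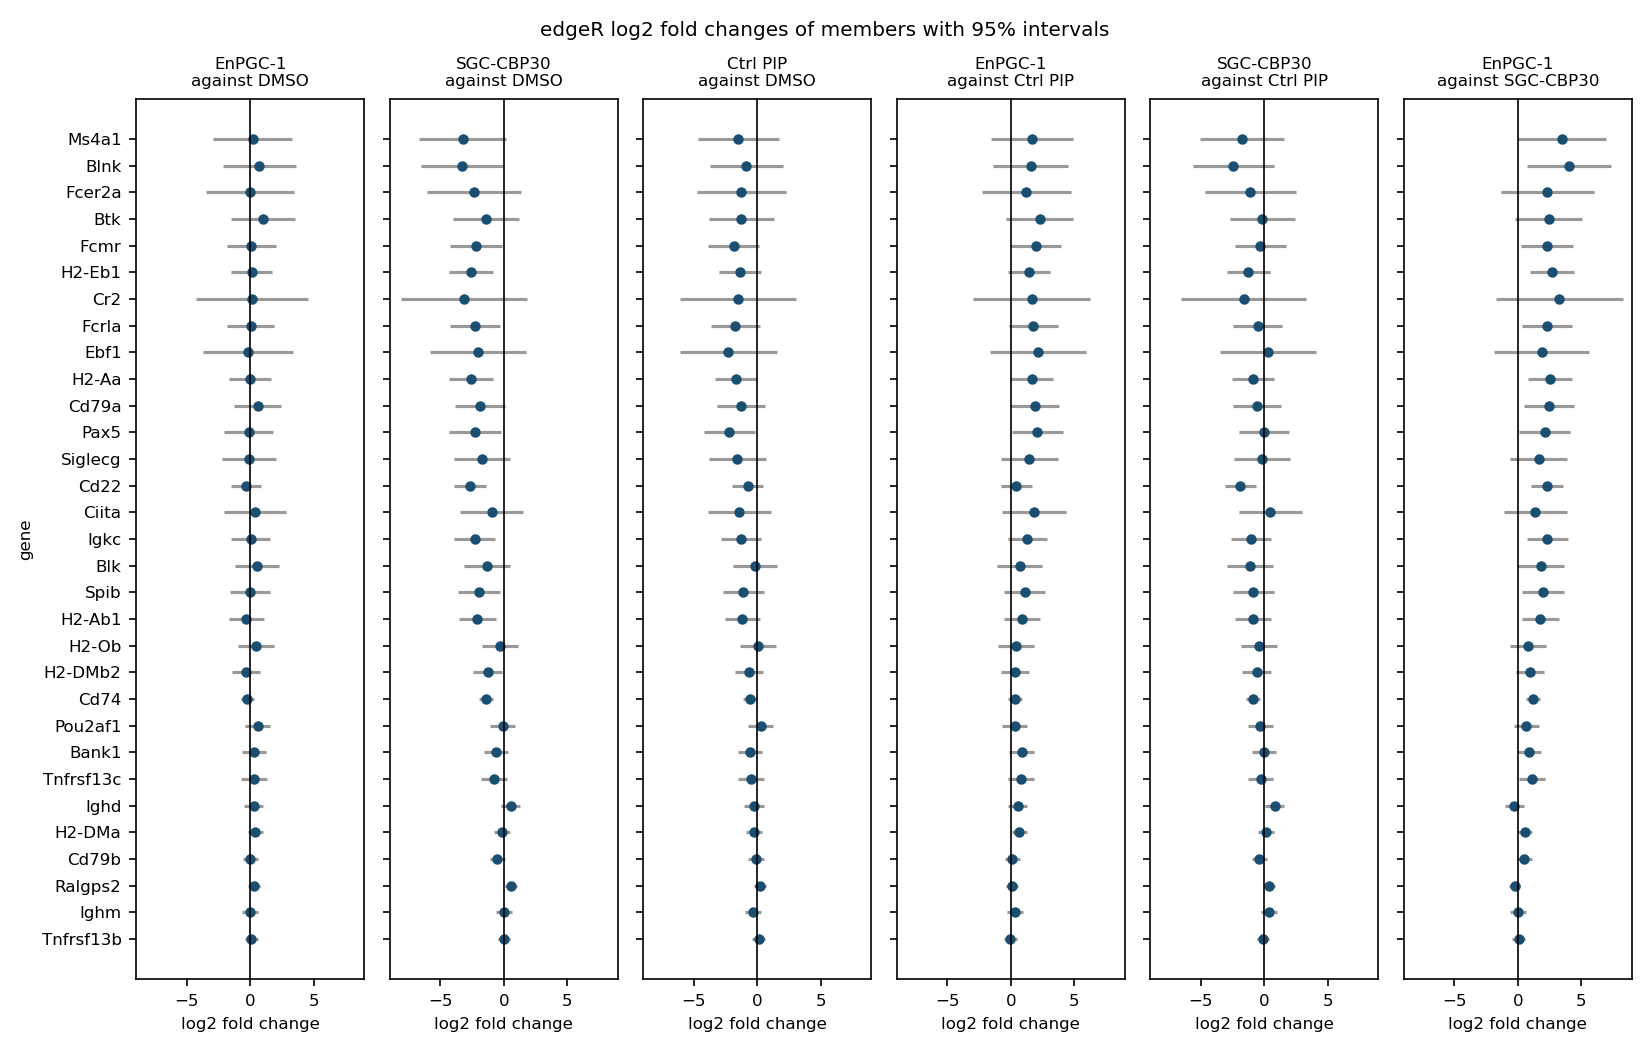
log2 fold changes with 95% intervals (edgeR quasi-likelihood fit of all 8 libraries) of 31 of the 33 genes in the 6 comparisons, genes ordered by their ratio of highest to lowest library; Vpreb3 and Cd40 are left out because a group was at 0. Points lie around 0 for EnPGC-1 against DMSO (median of the 33 genes 0.07), to the left for SGC-CBP30 against DMSO (-1.72) and to the right for EnPGC-1 against SGC-CBP30 (1.84), and the intervals of Tnfrsf13b, Ighm and Ralgps2 are the narrow ones at the bottom.

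In all 6 comparisons edgeR's quasi-likelihood test called 0 of the 33 genes and 0 of 16750 genes (0%) at an adjusted p under 0.05. At an unadjusted p under 0.05 it gave 0 of the 33 for EnPGC-1 against DMSO (0.8% of all genes higher, 1.81% lower). It gave 12 lower (2.82% of all genes) and 1 higher (1.57%) for SGC-CBP30 against DMSO, and 2 lower (0.364%) and 0 higher (0.233%) for Ctrl PIP against DMSO. For EnPGC-1 against Ctrl PIP there were 3 higher (1.71%) and 0 lower (2.77%), for EnPGC-1 against SGC-CBP30 14 higher (1.1%) and 0 lower (0.931%), and for SGC-CBP30 against Ctrl PIP 2 lower (2.56%) and 2 higher (1.43%). DESeq2's Wald test called 0 of the 33 in the other 4 comparisons.

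Other genes of the same pathways were taken from lists written from general knowledge. Of 39 further B cell genes tested, 0 passed the test in any comparison; 30 were below 0 for SGC-CBP30 against DMSO (median -0.97), 35 for Ctrl PIP against DMSO (median -0.48), and 26 above 0 for EnPGC-1 against DMSO (median 0.14). The lambda light chain gene Iglc2 had 2.70 and 1.10 CPM with EnPGC-1, 0.258 and 0.131 CPM with SGC-CBP30, 0.540 and 0.154 CPM with Ctrl PIP, and 1.90 and 0.988 CPM with DMSO, and it has near-identical copies. Its groups stood in the order of Cd79a. Pik3ap1, an adaptor for PI3 kinase, did not follow that order, with 4.37 and 4.72 CPM with EnPGC-1, 3.92 and 3.58 CPM with SGC-CBP30, 12.8 and 7.69 CPM with Ctrl PIP, and 10.8 and 17.8 CPM with DMSO.

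Of 16 further class II pathway genes, which include the promoter factors, 9 were below 0 for SGC-CBP30 against DMSO (median -0.16) and 12 above 0 for EnPGC-1 against Ctrl PIP (median 0.20), and 0 passed the test. Their summed level lay between 632 and 727 CPM in all 8 libraries, and high genes such as Creb1 (113 to 192 CPM) carried much of it. Single genes differed in how even they were. Ifi30 ranged from 10.2 to 55.0 CPM and Cd80 from 0.607 to 4.39 CPM, while Nfyc ranged from 53.5 to 62.2 CPM. The cathepsin gene Ctss ranged from 99.4 to 145 CPM. H2-DMb1 had 3.23 and 2.99 CPM with EnPGC-1, 2.23 and 0.821 CPM with SGC-CBP30, 1.5 and 1.21 CPM with Ctrl PIP, and 3.09 and 2.05 CPM with DMSO. Of 11 plasma cell and germinal centre genes, 7 were below 0 for SGC-CBP30 against DMSO (median -0.56); Irf4, which T cells also make on activation, had 24.6 and 38.7 CPM with EnPGC-1, 40.1 and 39.6 CPM with SGC-CBP30, 68.4 and 60.1 CPM with Ctrl PIP, and 52.8 and 88.4 CPM with DMSO.

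Some markers of other cell types were highest in replicate 1 of EnPGC-1 and of DMSO, and others were not. The summed level of 10 erythroid and platelet genes was 83.0 and 23.6 CPM with EnPGC-1, 23.3 and 7.56 CPM with SGC-CBP30, 14.4 and 11.2 CPM with Ctrl PIP, and 41.6 and 14.1 CPM with DMSO, and 7 of 7 tested were above 0 for EnPGC-1 against Ctrl PIP and below 0 for SGC-CBP30 against DMSO. Platelet genes made up most of that difference, as with Pf4, a platelet chemokine, which had 24.0 and 0.538 CPM with EnPGC-1, 6.04 and 0.765 CPM with SGC-CBP30, 0.740 and 1.75 CPM with Ctrl PIP, and 11.4 and 0 CPM with DMSO. The haemoglobin genes ran otherwise, each highest in replicate 2 of EnPGC-1 and lower in replicate 1 than in replicate 2 of DMSO. Hbb-bs had 4.44 and 6.76 CPM with EnPGC-1, 1.44 and 0.728 CPM with SGC-CBP30, 3.12 and 1.5 CPM with Ctrl PIP, and 1.47 and 4.15 CPM with DMSO. The sum of 14 myeloid genes was 39.5 and 13.3 CPM with EnPGC-1, 14.5 and 11.6 CPM with SGC-CBP30, 15.4 and 14.7 CPM with Ctrl PIP, and 23.9 and 16.9 CPM with DMSO, with 10 of 13 tested above 0 for EnPGC-1 against Ctrl PIP and 11 of 13 below 0 for SGC-CBP30 against DMSO. For EnPGC-1 against Ctrl PIP the median log2 fold change was 2.41 for the myeloid genes and 1.28 for the erythroid and platelet genes. It was 1.10 for the 33 genes. For SGC-CBP30 against DMSO these medians were -1.76, -1.82 and -1.72. Many of these markers were low, and 7 of the 14 myeloid genes were at 0 in some library. The monocyte marker Cd14 was at 0 in 5 of the 8 libraries, and Csf1r in 3. Foxp3, the factor of regulatory T cells, had 13.8 and 1.62 CPM with EnPGC-1, 3.55 and 2.11 CPM with SGC-CBP30, 1.76 and 2.25 CPM with Ctrl PIP, and 9.46 and 0.198 CPM with DMSO. Replicate 1 of EnPGC-1 and of DMSO were thus the highest for both sums and for Foxp3. Gata3 and Zbtb7b, factors of CD4 T cells on the same list as Foxp3, were lowest in replicate 1 of EnPGC-1, at 28.3 and 5.12 CPM. The part of these markers and of the length trend in the levels of the B lineage and class II genes was not tested.

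Sums of the other marker lists differed less between libraries, but a few high genes carried some of them. The 16 CD8 T cell identity genes summed to 5675 to 7503 CPM and the 7 CD4 T cell genes to 299 to 518 CPM, of which Ctla4, which activated CD8 T cells also make, held 237 to 440 CPM. The 13 genes of dendritic cells, which also carry class II, summed to 217 to 436 CPM with replicate 2 of DMSO the highest, and Irf8, Ccr9 and Bst2 were the highest of them. Lower genes of that list differed more. Itgax, the integrin CD11c, had 3.08 and 1.08 CPM with EnPGC-1, 0.699 and 0.933 CPM with SGC-CBP30, 4.0 and 4.28 CPM with Ctrl PIP, and 7.11 and 3.97 CPM with DMSO. The ratio of highest to lowest library was 10.2 for Itgax, 13.4 for Batf3 and at least 21.8 for Flt3. Cd209a was at 0 in every library, and Xcr1, Clec9a and Siglech had at most 7 counts in any. The 12 NK cell genes summed to 194 to 357 CPM, with Klra4 at 0 in every library, and 10 of 11 tested were below 0 for SGC-CBP30 against DMSO. The 12 plasma cell and germinal centre genes summed to 99.5 to 189 CPM. The median log2 fold change of the CD8 identity genes was 0.0011 for EnPGC-1 against DMSO, -0.22 for SGC-CBP30 against DMSO and -0.18 for Ctrl PIP against DMSO.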

How the data were processed

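RNA-seq counts of 8 libraries (4 groups of 2, named by the labels' titles) were used. The authors deposited whole-number counts per gene for 45777 genes and regularized log2 values (rlog) of 16442 genes. Per the submitters' processing notes, HISAT2, StringTie, DESeq2 and mm10 were used, with no versions or roles, and RNA was made into libraries with TruSeq Stranded mRNA, per the labels' protocols. No source used here gives the counter or its strand setting. There were 0 columns of other samples and 0 identical library pairs.

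Symbols came from RefSeq on GRCm38.p6 (99.8% of IDs matched) and lengths from the longest GENCODE M21 transcript. Counts were fitted with edgeR 4.0.16 in R 4.3.3 (TMM, filterByExpr by group, robust quasi-likelihood fit of group means over all 8 libraries, 4 residual degrees of freedom), which kept 16750 genes and all 33 genes described. Tests were two-sided, with Benjamini-Hochberg adjustment over all genes tested at 0.05. log2 CPM used a prior count of 2, and a group at 0 was set to 3 counts per library. Intervals cover the spread between libraries as modelled. Fits were tested on simulated data. The members and lists were chosen with earlier results of these data known.

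Genes given per library or with fold changes were a set list and the 3 of smallest p in a comparison, with up to 3 genes of each of 9 other lists (B cell, class II pathway, plasma cell and germinal centre, CD8, CD4, myeloid, dendritic, NK, erythroid and platelet). A few markers named for their level were chosen after their values were seen. Alternatives were DESeq2 1.42.0 size factors and Wald test, no filter on low counts, the replicate block, 4 libraries only, limma 3.58.1 on rlog, each library left out and, chosen after seeing the data, removal of a length trend (mgcv 1.9.3) and exchanged Ctrl PIP numbers.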

Additional observations from a re-analysis of the deposited data

How the results depend on the processing

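Across the 6 comparisons, the number of the 33 genes called was 0 in every setting run but DESeq2's Wald test and the fit of 4 libraries. Under DESeq2's Wald test it was 2 (Cd74 and Cd22) for SGC-CBP30 against DMSO, where 0.439% of all genes were called lower. The same 2 were called for EnPGC-1 against SGC-CBP30, where 0.0896% of all genes were called higher. In the fit of 4 libraries it was 3 of 29 tested for SGC-CBP30 against Ctrl PIP (Cd74 and Cd22 lower, Ighd higher). That fit called 8.51% of all genes lower and 7.27% higher, so both of these counts were under the share of all genes. The labels do not say what a replicate number stands for, and 2 pairs per comparison cannot settle whether the numbers pair the libraries. Over 16750 genes the correlation of same-numbered deviations was 0.67 for EnPGC-1 and DMSO and between -0.25 and 0.23 otherwise. Of the 33 genes, 19 had replicate 1 above replicate 2 in every group. Over all 33 genes, the median log2 difference from DMSO, for replicates 1 and 2, was 0.08 and 0.25 with EnPGC-1. It was -1.50 and -1.44 with SGC-CBP30, and -0.99 and -0.67 with Ctrl PIP. With the replicate block 0 genes were called in each comparison and the log2 fold change of Pax5 for EnPGC-1 against DMSO turned to 0.011; with the Ctrl PIP numbers exchanged, chosen after seeing the data, 0 were called too. With the length trend removed, also chosen after seeing the data, H2-Aa for EnPGC-1 against DMSO turned to 0.0082, and the median of the 33 genes was 1.25 for EnPGC-1 against Ctrl PIP and -0.24 for SGC-CBP30 against Ctrl PIP. Signs also turned when 1 library was left out. For EnPGC-1 against DMSO the range was -0.84 to 1.12 for Pax5, -0.71 to 0.43 for H2-Aa, -0.058 to 1.02 for Pou2af1 and -0.25 to 0.67 for the median; for SGC-CBP30 against Ctrl PIP it was -1.66 to 0.73 for Cd79a, -0.81 to 0.51 for Pax5 and -1.62 to 0.10 for H2-Aa. On the authors' rlog values, which shrink low genes, the medians were smaller, as for SGC-CBP30 against DMSO (-0.31). The causes were not tested. With a group left at 1 library, that library is assumed to vary like the others. Values of Ebf1, Cr2, Vpreb3 and Cd40 rest on few counts, and depth limits them.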
